A study of Mus musculus with 12 samples.

Results

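Genes of the circadian clock and its PAR bZIP output branch were followed in bone marrow-derived dendritic cells (BMDCs) that were stimulated with lipopolysaccharide (LPS), depleted of the chromatin organizer CTCF, or both. The 10 genes, *Tef*, *Dbp*, *Nfil3*, *Nr1d1*, *Nr1d2*, *Per1*, *Per2*, *Cry1*, *Arntl* and *Clock*, were taken by symbol from the 55335 genes in the expression tables, and all 10 were found. RNA-seq was available for 12 libraries in 4 groups of 3 replicates. Wild-type cells (WT, genotype CreER) and CTCF-deficient cells (KO, genotype CreER;CTCF fl/fl) came from adult C57BL/6 littermates of both sexes, matched for age and sex, and the same cells after LPS are called WTL and KOL. Bone marrow of both genotypes was grown for 6 days with GM-CSF, CD11c+ cells were selected from it per the study's methods, and WTL and KOL then received 100 ng/ml LPS for 3 h. Every group carries CreER, a tamoxifen-inducible recombinase driven from the Rosa26 locus in all cell types, and 4-hydroxytamoxifen, given on day 1, served to delete the floxed *Ctcf* alleles, which WT cells lack. The sources do not say plainly whether WT cultures received 4-hydroxytamoxifen, so the drug and the deletion cannot be told apart here. The time of day at harvest, which matters for clock genes, was not given in the sources used here. The labels also do not tie a replicate to an animal, so p-values measure the spread between these cultures.

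The clock is a transcriptional feedback loop that runs in most mammalian cells. CLOCK and its partner BMAL1 (the product of *Arntl*) bind E-boxes and activate the *Per*, *Cry* and *Nr1d* genes, whose PER and CRY proteins block CLOCK:BMAL1 and whose REV-ERB proteins repress *Arntl* and *Nfil3*. The PAR bZIP factors TEF and DBP are outputs of the loop that activate genes through D-boxes, while NFIL3 (also called E4BP4) binds the same D-boxes as a repressor. In the immune system NFIL3 is known for its need in the development of NK cells and of cross-presenting dendritic cells, and REV-ERBs and BMAL1 for restraining inflammatory genes in macrophages.

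The promoters of *Tef*, *Per1* and *Cry1* each hold the E-box CACGTG, and the stretches around these matches are shown because these letters are what CLOCK:BMAL1 recognizes. With LPS, *Tef* and *Per1* had lower and *Cry1* higher counts. CACGTG was not found in the windows of *Dbp* and *Nr1d1*, whose counts were also lower with LPS. Other spellings of the E-box and sites outside the windows were not searched, so these genes may hold E-boxes that were missed. RefSeq promoter windows on GRCm38.p6, which is mm10, were matched for 9 of the 10 genes and not for *Per2*, giving 14 windows from 250 bases before to 50 bases after an annotated start. Both strands were searched, each line runs 5′ to 3′ along the gene, and capitals mark the match. The first bases of the matches lie 127, 138, 166 and 60 bases upstream of the start, in this order.
Tef, chr15:81802526-81802571, plus strand: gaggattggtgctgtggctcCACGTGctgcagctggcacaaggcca
Tef, second start, chr15:81811256-81811301, plus strand: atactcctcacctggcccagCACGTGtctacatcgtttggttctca
Per1, chr11:69098763-69098808, plus strand: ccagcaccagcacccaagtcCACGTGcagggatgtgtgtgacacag
Cry1, chr10:85185089-85185134, minus strand: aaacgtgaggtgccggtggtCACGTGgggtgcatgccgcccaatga

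The nuclear receptor core site AGGTCA, which REV-ERB proteins share with other nuclear receptors, was found in windows of 5 of the genes, *Nfil3*, *Nr1d2*, *Per1*, *Arntl* and *Clock*. The search set no condition on the bases beside it. The stretches of *Nfil3* and *Nr1d2* are shown because *Nfil3* is the gene of the 10 whose LPS response differed most between the genotypes and *Nr1d2* is itself a REV-ERB gene. In *Nfil3* the match reads as its reverse complement, 12 bases upstream of the start, and in *Nr1d2* it lies 77 bases upstream.
Nfil3, chr13:52981026-52981071, minus strand: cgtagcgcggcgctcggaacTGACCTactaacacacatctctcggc
Nr1d2, chr14:18239158-18239203, minus strand: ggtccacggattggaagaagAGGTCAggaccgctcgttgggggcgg
These letters are not rare. The E-box stood in 7.15% and the core site in 16.3% of all 32851 windows in the table. The 9-letter NF-kB sequences GGAATTTCC and GGACTTTCC were found in the *Nr1d2* window alone (0.658% of all windows), and neither the D-boxes TTATGTAA and TTACGTAA (1.06%) nor the cAMP response element TGACGTCA (1.79%) were found in any of the 14. A match of letters is a description and no sign that a factor was bound.

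Libraries held 12769773 to 16586334 expected counts, and ribosomal RNA genes took 5.165% of them in WTL replicate 2 and at most 1.185% elsewhere. *Ctcf* itself had 975 to 1051 normalized counts in WT and 745 to 886 in WTL, against 516 to 569.7 in KO and 526 to 563.5 in KOL, and was at 54.7% of its WT level in KO. This count is of the whole gene, not of the floxed part alone. The study reported efficient loss of CTCF mRNA and protein, with CTCF binding lost or strongly reduced at every site. Of 7 dendritic cell markers, 7 were above 1 TPM in WT, WTL and KOL and 6 in KO, where *Flt3* was at 0.843 TPM, while the summed TPM of the 4 T cell markers was at most 1.67. By the test given below, 1 of the 7 dendritic cell markers was called higher and 2 lower in KO against WT. In KOL against KO 4 of them were called higher and 0 lower. The 7 macrophage or monocyte markers summed to 24740 to 26840 TPM in WT and 45440 to 47920 in KO, nearly all of it *Lyz2* (means of 25370 and 45980), with 4 of the 7 higher and 3 lower in KO, among them *Adgre1* at 99.2 and 50.4 TPM. The 6 neutrophil markers summed to 365 to 388.5 TPM in WT and 190.9 to 223.5 in KO. The 4 cycling-cell markers summed to 219 to 232 TPM in WT, 110.3 to 139.7 in WTL, 135.5 to 146 in KO and 69.5 to 81.1 in KOL. By the test on counts given below, 0 of these 4 were called lower in WTL against WT and 1 in KOL against KO. In KO against WT 2 were called lower, and in KOL against WTL 3. The median TPM of expressed genes was itself 12.52 to 12.94 in WT and 8.28 to 8.95 in WTL. The part of these differences in the clock genes' changes was not tested, and in bulk RNA fewer cells of a type and less RNA per cell cannot be told apart.

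All 10 genes passed the filter on low counts, as did 14008 genes in all. A gene is said to have risen or fallen where the quasi-likelihood test of edgeR, with p-values adjusted over these 14008 genes by the Benjamini-Hochberg method, gave an adjusted p under 0.05 and the fold exceeded the cutoff of the comparison. This cutoff was 2 for the LPS responses, 1.3 between the genotypes without LPS and 1.5 between them after LPS. Adjusted p-values below are from this test unless another is named. For the difference between the LPS responses of the genotypes the adjusted p alone decided. The fit gives the 4 groups 1 shared estimate of spread, but replicates disagreed more after LPS. Their chi-square per degree of freedom was 29.5 to 81.5 in WTL and 8.46 to 30 in KOL. It was 3.26 to 4.64 in WT and 1.69 to 1.9 in KO. In WTL the pairs with replicate 2, the library with most ribosomal RNA, gave 81.5 and 76.7, and replicates 1 and 3 gave 29.5. The part of ribosomal RNA in these values was not tested. With only the 6 libraries of KOL against WTL, adjusted p was 0.00045 for *Nfil3*, 0.0054 for *Dbp* and 0.014 for *Nr1d1*. These 3 calls stayed. The 6 libraries of KO against WT gave 0.0029 for *Dbp* and 1.3e-06 for *Nr1d1*.

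In WT BMDCs, LPS lowered 4 of the 10 genes, *Tef*, *Dbp*, *Nr1d1* and *Per1*, against a background of 9.99% of all genes, and raised none of them by more than 2-fold, against 12.6%. DESeq2 likewise called 0 higher and 4 lower, and at an unadjusted p under 0.05 edgeR had 1 higher and 7 lower. By the adjusted p alone, 7 genes were lower (background 30.2%) and *Cry1* was higher (30.0%). The median log2 fold change of the 10 was −0.75, and that of all genes −0.02.

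Without LPS, loss of CTCF raised *Dbp* and lowered *Nr1d1*, against backgrounds of 17.3% and 17.2%, so the 10 genes as a list stood near the background. By the adjusted p alone *Tef* was also higher (2 genes, background 22.2%) and *Nfil3* and *Cry1* also lower (3 genes, background 22.4%). After LPS, *Dbp* and *Nfil3* were higher and *Nr1d1* was lower in KOL than in WTL, with a background of 12.5% in either direction. By the adjusted p alone 4 genes were higher (*Tef*, *Dbp*, *Nfil3* and *Per1*; background 21.4%) and 2 lower (*Nr1d1* and *Clock*; background 23.3%).

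In CTCF-deficient cells LPS lowered *Tef*, *Dbp* and *Nr1d1* (background 13.0%) and raised *Nfil3* (background 15.1%). By the adjusted p alone every one of the 10 differed between KOL and KO, 8 lower (background 33.9%) and 2 higher (background 33.6%). The LPS response itself differed between the genotypes for *Nfil3* and *Per1*, both less negative or more positive in KO (background 8.7%), and for 0 of the 10 in the other direction (background 8.75%), where edgeR at an unadjusted p under 0.05 and DESeq2 also had 0. The 5 comparisons share their control libraries and are not independent of each other.

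**Figure D1:**
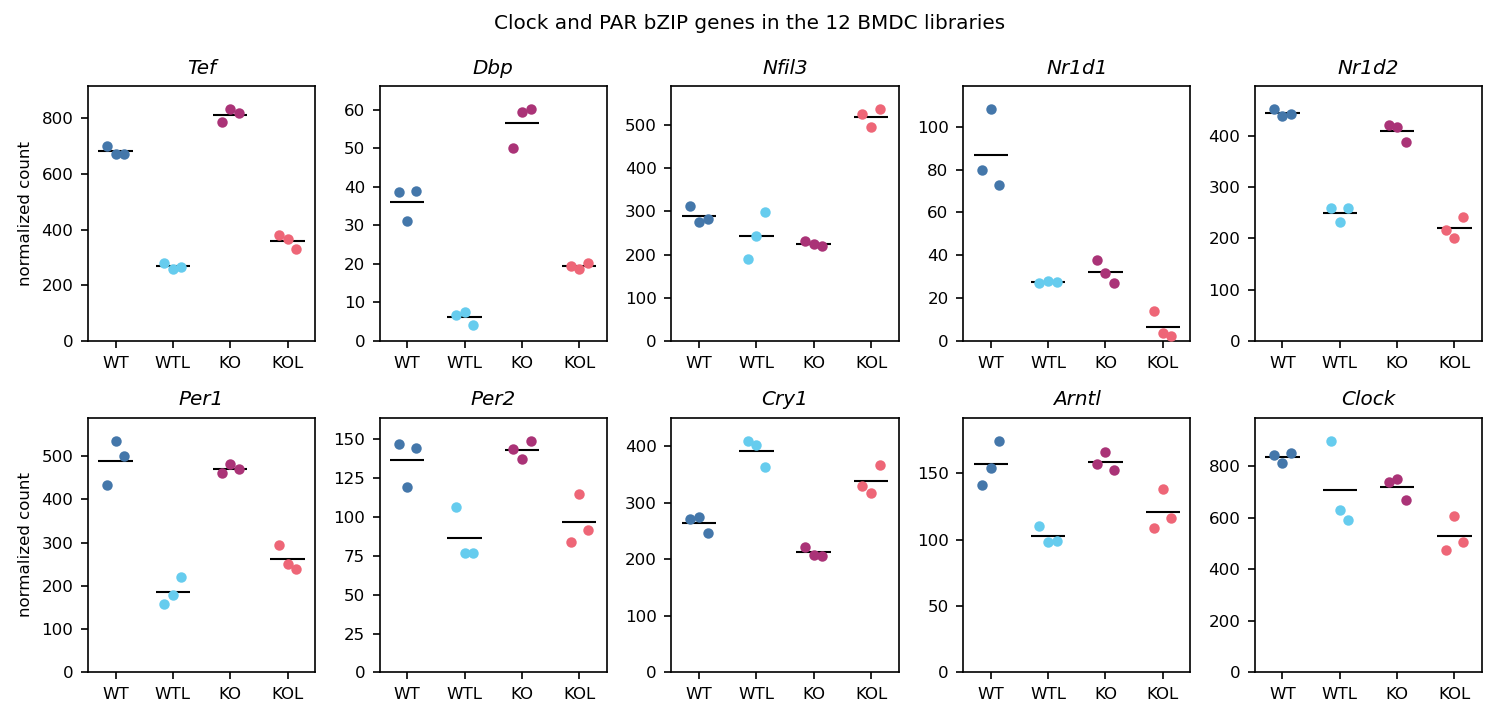
Normalized counts (y axis, linear from 0) of the 10 genes in each library of the 4 groups (x axis), with a bar at the group mean. Tef, Dbp, Nr1d1 and Per1 sit lower in WTL than in WT, and Nfil3 sits at 495 to 537 in KOL against at most 313 in any other library.

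*Tef* (chr15:81802421-81826863, plus strand) encodes thyrotroph embryonic factor and was the member with the highest TPM in WT, 21.8 ± 1.38 (SD, n = 3). Its normalized counts, which are library-scaled counts, were 701, 673 and 672 in WT and 281, 258 and 265 in WTL. In KO they were 785, 832 and 817, and in KOL 379.6, 367 and 329.9. The 4 groups did not overlap, and the order KO, WT, KOL, WTL held for every library. *Tef* fell with LPS to 39.2% of its level in WT (log2 fold change −1.35, SE 0.073, adjusted p = 8.5e-10) and to 44.2% in KO (−1.18, SE 0.070, adjusted p = 2.4e-09). It was 1.19-fold higher in KO than in WT (adjusted p = 0.007) and 1.34-fold higher in KOL than in WTL (adjusted p = 0.00038), both under the fold cutoffs. The LPS responses did not pass the test of their difference (0.17, SE 0.10, adjusted p = 0.27). Of 15 other settings of the analysis, 15 left the fall in WT past the thresholds.

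*Dbp* (chr7:45705088-45710203, plus strand), the D-box binding protein whose transcript cycles strongly in most tissues, was far less abundant than *Tef* at 3.87 ± 0.42 TPM in WT. Normalized counts were 38.6, 31.0 and 38.9 in WT, 6.74, 7.58 and 4.25 in WTL, 50.2, 59.5 and 60.2 in KO and 19.4, 18.7 and 20.3 in KOL. As for *Tef*, the groups were separate and in the order KO, WT, KOL, WTL. *Dbp* fell with LPS to 17.3% of its level in WT (log2 fold change −2.53, SE 0.27, adjusted p = 1.3e-06) and to 34.5% in KO (−1.53, SE 0.21, adjusted p = 1.3e-05). It was 3.12-fold higher in KOL than in WTL (1.64, SE 0.30, adjusted p = 0.00043). The rise in KO without LPS was smaller, 1.57-fold (0.65, SE 0.18, adjusted p = 0.010), and was not called by DESeq2 (adjusted p = 0.055), without KO replicate 3 (0.051), without WT replicate 2 (0.081) or with limma on log2(TPM + 0.1) (0.089). The difference between the LPS responses was 1.00 (SE 0.35, adjusted p = 0.081).

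*Dbp* shares 539 exonic bases with *Sphk2* on the opposite strand, and its expected counts were not whole in 11 libraries, so part of its reads may have been divided between both genes. *Sphk2* had 792, 705, 959 and 794 normalized counts on average in WT, WTL, KO and KOL. Its log2 fold change was −0.17 with LPS in WT (adjusted p = 0.16) and 0.28 in KO against WT (adjusted p = 0.029, under the cutoff). *Sphk2* had far more counts than *Dbp*, and the part of divided reads in the *Dbp* changes was not tested.

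*Nfil3* (chr13:52967209-52981073, minus strand), the repressor of the same sites, was the gene of the 10 whose LPS response differed most between genotypes. It had 313, 276 and 283 normalized counts in WT, 190.2, 244 and 298 in WTL, 231, 225 and 221 in KO, and 527, 495 and 537 in KOL. The 3 KOL libraries stood above all others, and WTL and WT overlapped. LPS raised *Nfil3* 2.31-fold in KO (log2 fold change 1.21, SE 0.12, adjusted p = 4.9e-07), a call that ended in 2 of 15 other settings, limma on log2(TPM + 1) and log2(TPM + 0.1), where it was 0.70 and 0.745 and so under 2-fold. KOL was 2.12-fold above WTL (1.08, SE 0.12, adjusted p = 4.2e-06). In WT the change with LPS was −0.24 (SE 0.12, adjusted p = 0.098). The LPS responses differed by 1.45 (SE 0.17, adjusted p = 5.8e-05), and this difference passed in 20 of 20 other settings, from 1.31 to 1.62. Before LPS the direction was the opposite, with *Nfil3* 1.29-fold lower in KO than in WT (−0.37, SE 0.12, adjusted p = 0.022), just under the cutoff, and past it in 6 of 15 other settings. The promoter stretch with the inverted core site shown above belongs to this gene.

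Because NFIL3 and the PAR bZIP factors share their sites, the TPM of *Nfil3* was set against the summed TPM of *Tef*, *Dbp* and *Hlf*, the last PAR bZIP gene, which had at most 1 count per library in WT and KO and 2 in WTL and averaged 5.39 normalized counts in KOL. This ratio is a description of transcripts, not of proteins. It was 0.621, 0.587 and 0.597 in WT, 0.898, 1.66 and 1.90 in WTL, 0.412, 0.368 and 0.364 in KO, and 2.11, 1.99 and 2.21 in KOL. The groups did not overlap. The ratio was lowest in KO and highest in KOL. In WTL the length RSEM assigned to *Tef* was 2622 in replicate 1, against 3554 and 3414 in replicates 2 and 3. The normalized counts of *Tef* there were 281, 258 and 265, so part of the spread of the ratio in WTL came from length. By the test on counts, LPS in KO raised *Nfil3* and lowered *Tef* and *Dbp*, and in WT it lowered *Tef* and *Dbp* while *Nfil3* did not pass. On the TPM scale of the ratio, *Nfil3* was at 14.6 to 17.1 in WT and 7.22 to 11.3 in WTL. There limma on log2(TPM + 1) gave −0.74 (adjusted p = 0.00052), under the 2-fold cutoff. The median of all genes was −0.44 on that scale.

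**Figure D2:**
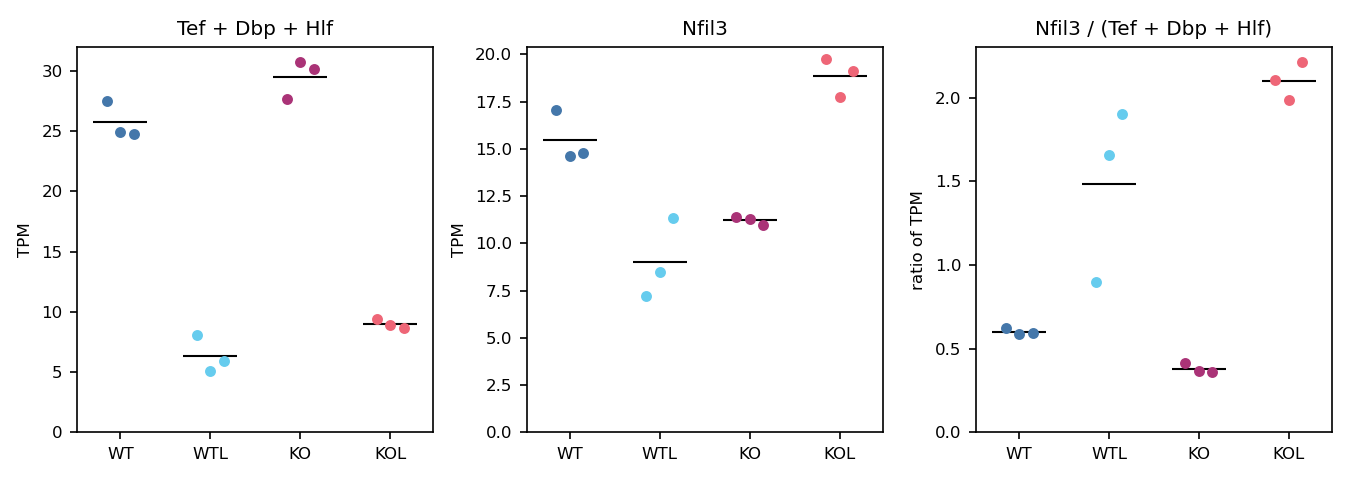
TPM of the PAR bZIP activators summed, TPM of Nfil3, and their ratio (y axes, from 0) in each library of the 4 groups (x axes), with bars at group means. The ratio averages 0.602 in WT, 1.49 in WTL, 0.381 in KO and 2.10 in KOL.

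*Nr1d1* (chr11:98767932-98775333, minus strand) encodes REV-ERBα and was the only one of the 10 called lower in all 4 comparisons between groups. Normalized counts were 79.9, 108 and 72.6 in WT, 27.0, 28.2 and 27.6 in WTL, and 37.7, 31.7 and 26.9 in KO. In KOL they were 14.0, 3.51 and 2.14, from 12.68, 3 and 2 expected counts, so the fold against this group rests on few reads. It fell to 31.8% of its WT level with LPS (log2 fold change −1.65, SE 0.30, adjusted p = 0.00026) and to 37.0% with loss of CTCF (−1.43, SE 0.28, adjusted p = 0.00086). In KOL it was at 24.3% of WTL (−2.04, SE 0.44, adjusted p = 0.0017) and at 20.9% of KO (−2.26, SE 0.42, adjusted p = 0.00028). KOL replicate 1 set these last values, which without it were −3.25 and −3.47. The LPS responses differed by −0.61 (SE 0.54, adjusted p = 0.49), and without KOL replicate 1 by −1.81 (adjusted p = 0.035).

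*Nr1d1* shares 263 exonic bases with *Thra*, the thyroid hormone receptor gene on the opposite strand, and its expected counts were not whole in 6 libraries. *Thra* averaged 90.6 normalized counts in WT, 69.2 in WTL, 19.9 in KO and 17.3 in KOL. Both genes were lower in KO than in WT, *Thra* by −2.19 (SE 0.29, adjusted p = 2.5e-05). *Thra* did not pass with LPS in WT (−0.41, SE 0.25, adjusted p = 0.18), where *Nr1d1* fell. *Nr1d1* and *Thra* had 41.69 and 19.31 expected counts in KO replicate 1, and 12.68 and 22.32 in KOL replicate 1. These fractions make up whole numbers, so some reads were divided between both genes, also in the library that set the KOL folds. Without knowledge of whether strand was used in counting, reads of the shared stretch cannot be told apart. The part of divided reads in the *Nr1d1* changes was not tested.

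*Nr1d2* (chr14:18204054-18239127, minus strand) encodes REV-ERBβ, which acts on the same sites as REV-ERBα. It had 452, 439 and 443 normalized counts in WT, 259, 232 and 258 in WTL, 421, 417 and 388 in KO, and 217, 201 and 241 in KOL. The libraries with LPS lay below all those without it. The level with LPS was 56.2% of that in WT (log2 fold change −0.83, SE 0.081, adjusted p = 6.1e-07) and 53.9% of that in KO (−0.89, SE 0.082, adjusted p = 2.8e-07), short of the 2-fold cutoff. KO against WT gave −0.12 (SE 0.076, adjusted p = 0.22) and KOL against WTL −0.18 (SE 0.087, adjusted p = 0.11). By TPM *Nr1d2* was the more abundant REV-ERB transcript in every group, 12.8 against 3.79 in WT and 4.17 against 0.17 in KOL.

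*Per1* (chr11:69095217-69109960, plus strand), a repressor of the loop that is also an early response gene in many cells, fell with LPS in WT and was less reduced in KO. Its normalized counts were 434, 536 and 499.6 in WT, 159, 179.8 and 220.1 in WTL, 460.3, 482 and 471 in KO, and 295, 250.4 and 239 in KOL. WT and KO overlapped, and every WTL library lay below every KOL library. It fell to 38.3% of its level in WT (log2 fold change −1.39, SE 0.12, adjusted p = 1.4e-07), and in KO the level with LPS was 55.5% (−0.85, SE 0.11, adjusted p = 1.3e-05), short of the cutoff. KOL was 1.40-fold above WTL (0.48, SE 0.12, adjusted p = 0.0060), also under its cutoff. The LPS responses differed by 0.54 (SE 0.16, adjusted p = 0.037), a call that was lost in 11 of 20 other settings, whose adjusted p ranged from 0.006 to 0.20. With the replicate block it was 0.54 at an adjusted p of 0.058. The NF-kB letters were in none of the *Per1* windows, and the E-box and core site in 1 of its 2 windows.

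*Per2* (chr1:91415982-91459324, minus strand), the related repressor, had 147, 119 and 144 normalized counts in WT, 106, 76.9 and 76.6 in WTL, 144, 137 and 149 in KO, and 83.9, 115 and 91.8 in KOL. Its libraries with LPS lay below those without it. The level with LPS was 62.9% of that in WT (log2 fold change −0.67, SE 0.16, adjusted p = 0.0019) and 67.4% of that in KO (−0.57, SE 0.15, adjusted p = 0.0043), neither past 2-fold. Genotype gave 0.07 without LPS (adjusted p = 0.73) and 0.17 after it (adjusted p = 0.44).

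*Cry1* (chr10:85131700-85185064, minus strand), which encodes the cryptochrome that blocks CLOCK:BMAL1, was the only one of the 10 higher with LPS in both genotypes. It had 271, 274 and 246 normalized counts in WT, 410.0, 402 and 363 in WTL, 222, 208 and 207 in KO, and 329, 318 and 366 in KOL. Every library with LPS stood above every library without it. The level with LPS was 1.48-fold that in WT (log2 fold change 0.57, SE 0.083, adjusted p = 3.9e-05) and 1.59-fold that in KO (0.67, SE 0.086, adjusted p = 8.3e-06), under the cutoff of 2. KO was 1.24-fold below WT (−0.31, SE 0.086, adjusted p = 0.0085), and KOL against WTL gave −0.21 (SE 0.083, adjusted p = 0.054). On TPM, which puts the median of all genes at −0.44 (log2) in WTL against WT, limma on log2(TPM + 1) gave *Cry1* 0.10 in WT (adjusted p = 0.52) and 0.055 in KO (adjusted p = 0.74), so neither difference passed there.

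None of the calls fell on the activators of the loop. *Arntl* (chr7:113207465-113314126, plus strand), which encodes BMAL1, had 142, 154 and 175 normalized counts in WT, 111, 98.6 and 98.9 in WTL, 157, 166 and 153 in KO, and 109, 138 and 116 in KOL. Its level with LPS was 65.3% of that in WT (log2 fold change −0.61, SE 0.12, adjusted p = 0.00055) and 76.2% of that in KO (−0.39, SE 0.12, adjusted p = 0.0095), with no overlap in either genotype. Genotype gave 0.02 without LPS (adjusted p = 0.93) and 0.24 after it (adjusted p = 0.15).

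*Clock* (chr5:76209868-76304792, minus strand), its partner, had 844, 811 and 852 normalized counts in WT, 898, 628 and 590.1 in WTL, 739, 751 and 668 in KO, and 473, 605 and 504 in KOL. WTL replicate 1 stood above all WT libraries and the other 2 WTL libraries below them. The change with LPS was −0.25 in WT (SE 0.13, adjusted p = 0.12) and −0.45 in KO (SE 0.13, adjusted p = 0.0087). KO against WT gave −0.22 (SE 0.13, adjusted p = 0.20), and KOL against WTL −0.42 (SE 0.14, adjusted p = 0.022), with overlapping libraries. None of these passed a fold cutoff.

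**Figure D3:**
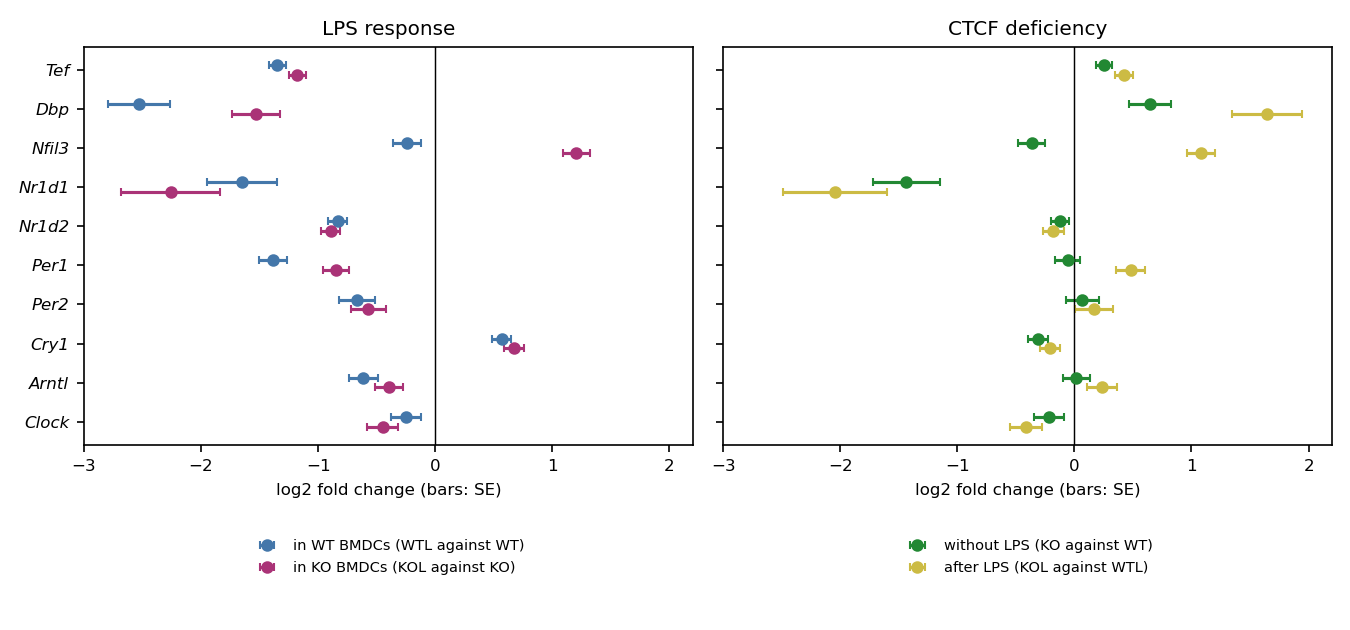
Log2 fold changes (x axes) of the 10 genes (y axis) with LPS in WT and KO (left) and with CTCF deficiency without and after LPS (right), with SE bars, from the edgeR fit of 12 libraries. Nfil3 is the one gene whose points lie on opposite sides of 0 in both panels, at −0.24 and 1.21 on the left and −0.37 and 1.08 on the right.

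Levels of different genes were compared by TPM, which accounts for transcript length. In WT the order was *Tef* (21.8), *Nfil3* (15.5), *Nr1d2* (12.8), *Per1* (11.5), *Clock* (9.43), *Cry1* (9.22), *Arntl* (5.89), *Dbp* (3.87), *Nr1d1* (3.79) and *Per2* (2.34). The pairs *Nr1d2* and *Per1*, *Clock* and *Cry1*, and *Dbp* and *Nr1d1* overlapped between libraries, and the other neighbours did not. In KO *Tef* was again first (24.1), ahead of *Nfil3* (11.2) with no overlap, and *Nr1d1* was last (1.15). In WTL *Cry1* (9.98) and *Nfil3* (9.01) led with overlapping libraries, followed by *Tef* (5.70), which overlapped *Nfil3*, and *Dbp* was last (0.597). In KOL *Nfil3* stood alone at the top (18.9), ahead of *Cry1* (8.35) and *Tef* (7.38), which did not overlap each other. Some TPM values moved with the transcript length RSEM assigned rather than with counts. *Per2* in KOL replicate 1 was at 2.25 TPM against 1.31 and 1.05 in the other replicates, although its normalized count was the lowest of the 3, and *Cry1* in KO replicate 1 was at 10.8 TPM against 6.73 and 6.99 at similar counts.

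Another 26 genes of the clock and its regulators were followed as a list, of which 23 could be tested. The rest, among them *Hlf*, were too low. With LPS in WT, *Npas2*, *Timeless* and *Fbxw11* rose and *Per3*, *Usp2* and *Wee1* fell, with a median of −0.21 over the 23 against −0.02 over all genes. Few reads lay behind *Npas2*, with 7 to 9 expected counts per library in WT, and *Usp2*, with 10 to 13 in WTL. With loss of CTCF 2 rose (*Ciart* and *Fbxl21*) and 5 fell (*Bhlhe41*, *Timeless*, *Sirt1*, *Usp2* and *Noct*), with a median of −0.05. In KOL against WTL 4 rose (*Npas2*, *Fbxl21*, *Gsk3b* and *Wee1*) and 2 fell (*Sirt1* and *Noct*), with a median of −0.12. In KOL against KO 5 rose (*Bhlhe40*, *Npas2*, *Timeless*, *Fbxw11* and *Noct*) and 3 fell (*Per3*, *Ciart* and *Fbxl21*), with a median of 0.31. The LPS response was shifted upward in KO for 7 (*Bhlhe40*, *Bhlhe41*, *Timeless*, *Gsk3b*, *Usp2*, *Wee1* and *Noct*) and downward for 0 of the 23, with a median of 0.17. Counts of so few genes are a description beside the backgrounds given above.

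*Noct*, the clock-controlled gene of the enzyme nocturnin, had 351, 337 and 294 normalized counts in WT, 489.6, 655 and 679 in WTL, 111, 134 and 110.2 in KO, and 379.6, 304 and 396 in KOL. It was lowest in KO, where it fell by 1.47 on the log2 scale (SE 0.15, adjusted p = 1.5e-06). It rose with LPS in KO (1.61, SE 0.15, adjusted p = 2.6e-07), and the LPS responses differed by 0.71 (SE 0.20, adjusted p = 0.023).

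*Wee1*, which encodes a cell cycle kinase with a clock-controlled promoter, had 148, 150.1 and 152 normalized counts in WT, 74.2, 63.9 and 54.2 in WTL, 121, 117 and 139.9 in KO, and 145, 139 and 184 in KOL. It fell with LPS in WT (log2 fold change −1.24, SE 0.15, adjusted p = 4.6e-06), and the LPS responses differed by 1.55 (SE 0.20, adjusted p = 0.00012), a difference of about the size of that of *Nfil3*.

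Among the E-box repressors of the DEC family, *Bhlhe41* (DEC2) fell in KO from 673, 688 and 669 normalized counts to 276, 284 and 311 (log2 fold change −1.22, SE 0.10, adjusted p = 2.7e-07). *Bhlhe40* (DEC1) was more abundant, at 5687, 5532 and 5403 in WT, and rose with LPS in KO (1.02, SE 0.085, adjusted p = 9.3e-08). Both had LPS responses that differed between genotypes, by 0.67 and 0.72 (adjusted p = 0.0062 and 0.00091).

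*Timeless*, a replication fork gene related to the fly clock gene of that name, rose with LPS from 257, 275 and 263 to 665, 653 and 595 normalized counts in WT (log2 fold change 1.27, SE 0.072, adjusted p = 1.6e-09) and fell in KO (−0.72, SE 0.078, adjusted p = 3.8e-06). *Fbxw11*, a ubiquitin ligase subunit that acts on PER proteins, rose from 1328, 1236 and 1239 to 2972, 3109 and 3251 with LPS in WT (1.295, SE 0.066, adjusted p = 4.9e-10). *Sirt1*, a deacetylase, fell in KO (−0.68, SE 0.078, adjusted p = 5.8e-06), and *Gsk3b*, a kinase of clock proteins, was higher in KOL than in WTL (0.62, SE 0.13, adjusted p = 0.0012).

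*Per3* and *Fbxl21* had fewer than 100 normalized counts on average and are singled out after their values were seen. *Per3*, the remaining period gene, had 73.5, 89.7 and 80.4 normalized counts in WT and 20.2, 28.2 and 18.1 in WTL, and fell with LPS as *Per1* did (log2 fold change −1.86, SE 0.19, adjusted p = 9.8e-07). *Fbxl21*, a ligase subunit that acts on cryptochromes, had at most 3 counts per library in WT, and 61.0, 40.3 and 51.9 normalized counts in KO, at least 18.5-fold higher than a floor of 3 counts per library.

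**Figure D4:**
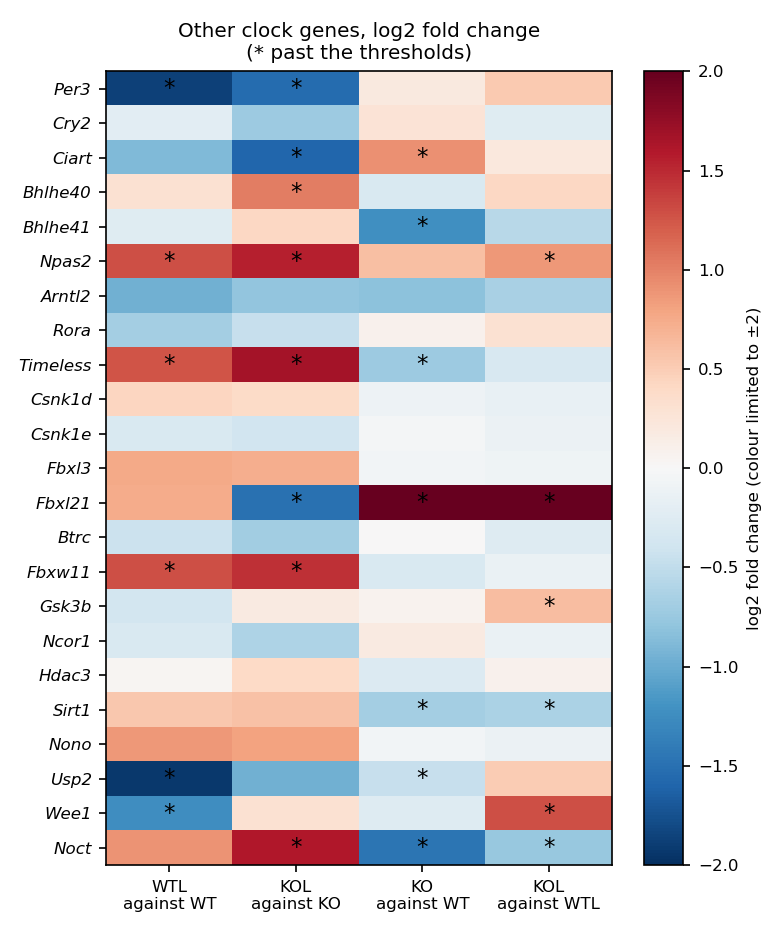
Log2 fold changes (colour, limited to ±2) of the 23 further clock genes tested (y axis) in 4 comparisons (x axis), with an asterisk where the thresholds were passed. Timeless, Fbxw11 and Npas2 carry asterisks for higher levels with LPS in both genotypes, Npas2 from 7 to 9 expected counts per library in WT and 13 to 20 in WTL.

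The genes with the most alike pattern were sought among 9338 genes with a mean of at least 100 normalized counts, by the root mean square difference of centred log2 values over the 12 libraries. For *Tef* these were *Prkar2a* (0.11), *Fli1* (0.11) and *Sec14l1* (0.12), for *Dbp* *Tns4* (0.26), *Tmem273* (0.31) and *Agfg2* (0.33), and for *Nfil3* *Bin1* (0.13), *Slc22a5* (0.15) and *Cytip* (0.15). *Cytip*, a regulator of lymphocyte and dendritic cell adhesion, averaged 6586 normalized counts in WT, 4429 in WTL, 4155 in KO and 10190 in KOL, and so stood highest in KOL as *Nfil3* did. *Tns4* averaged 351, 89.5, 770.2 and 232, with the order KO, WT, KOL, WTL that *Dbp* also showed. Because these genes were chosen for their likeness, the shared orders follow from that choice.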

How the data were processed

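RNA-seq of 12 BMDC libraries was analysed, 4 groups of 3 replicates assigned from the sample titles and labels. The authors trimmed reads, aligned them to mm10 with STAR (2.5.1 in the submitters' processing notes) and quantified genes with RSEM. They deposited an RSEM expected count, estimated and so at times not whole, for each of 55335 genes per library. TPM values deposited beside it are scaled per library and keep no depth. The methods name a stranded poly(A) kit and the labels depletion of ribosomal RNA, and the strand setting of RSEM was not given in the sources used here. Antisense overlaps are therefore reported as uncertain.

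Expected counts, 12769773 to 16586334 per library, were rounded, normalized with TMM, filtered with filterByExpr and tested with edgeR 4.0.16 (glmQLFit, glmQLFTest) in R 4.3.3, in 1 fit of 12 libraries without covariates. Fold cutoffs followed the study, with that for LPS also used for KOL against KO. A normalized count is the count over the library's effective size, times the mean of that size over the libraries. Groups whose libraries all had 3 counts or fewer were taken as at the floor for that gene. The mean over 3 replicates is given with its SD. The edgeR test gives no SE of a log2 fold change. The SE given is the size of that change over the square root of the F statistic, and so is approximate. Positions are those of GENCODE M21 and promoters those of RefSeq on GRCm38.p6. Python 3.11.15, numpy 2.4.6, pandas 2.3.3 and matplotlib 3.10.9 were used. The test was checked on simulated data for KO against WT alone, with the same spread in every group. That check does not cover the LPS comparisons, where the spread was unequal.

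All 10 genes are described. From the 26 further clock genes, those called at least once with a mean of at least 100 normalized counts were named with values, and for *Tef*, *Dbp* and *Nfil3* the 3 genes most alike. The genes and lists were chosen with earlier results of these data known. Replicate numbers were checked for pairing: correlations of same-numbered libraries' deviations from their group means were −0.325 to 0.126, so the numbers were not taken as pairs. Alternatives were DESeq2 1.42.0, its size factors, 6 libraries alone, other filters, the replicate block, no fold cutoff, limma 3.58.1 on log2 TPM with a pseudocount of 1 or 0.1, and leaving out each replicate.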

Additional observations from a re-analysis of the deposited data

Results flagged for a closer look

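The LPS responses of *Nfil3* and *Per1* differed between the genotypes by the test of the difference itself. The log2 LPS response of *Nfil3* was higher in KO than in WT by 1.45, with higher counts in 3 of 3 KOL libraries than in any KO library. It passed in 20 of 20 other settings. That of *Per1* was higher by 0.54, a call lost in 11 of 20 other settings, with an adjusted p of 0.058 under the replicate block. No explanation was tested.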

How the results depend on the processing

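Of 790 values of single genes under the alternatives, 754 stayed on their side of the thresholds, 19 lost and 17 gained a call, and none of the called values changed sign. At least 10 counts in every library left 8 of the 10 genes, without *Dbp* and *Nr1d1*, and gave 2 calls in place of 4 in WTL against WT, 0 in place of 2 in KO against WT (edgeR, with 3 of the 8 at an unadjusted p under 0.05; DESeq2, run without this filter on all 10, gave 2), 1 in place of 3 in KOL against WTL and 2 in place of 4 in KOL against KO, because fewer genes were tested. Without fold cutoffs the counts were 8, 5, 6 and 10. With limma on log2(TPM + 0.1), WTL against WT had 7, a scale on which the median of all genes fell by 0.515. Leaving out 1 replicate gave 1 to 4 calls in KO against WT, 1 without KO replicate 3 and 4 without WT replicate 3, and 1 to 2 for the difference of the LPS responses. That difference had 1 call, *Nfil3*, with limma on log2(TPM + 1) and log2(TPM + 0.1), with the TPM scaled to a common median (chosen after seeing the data), and with the replicate block. With limma on log2(TPM + 1) *Nfil3* in KOL against KO was at 0.70 and *Nr1d1* at −0.88, both under the 2-fold cutoff. The replicate block changed no other call among the 10 genes, and the cause of the other moves was not tested. The depth limits *Dbp* in WTL and *Nr1d1* in KOL, at 4.08 to 7.12 and 2 to 12.68 expected counts.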
